A study of Homo sapiens with 24 samples.

Results

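The m6A peaks described here lay in short internal coding exons of human mRNAs, in a cell line differentiated from pluripotent stem cells towards pancreatic islet cells. Each deposited peak was clipped to the exons of its gene on the longest protein-coding GENCODE isoform. A peak was kept when its exonic midpoint fell in the coding sequence (CDS), more than 200 nt before the stop codon, in an exon under 400 nt that was neither the first nor the last. Of 228472 peaks in 6 lists, 171944 could be placed on such an isoform and 33108 met this rule. They occupied 19372 different exons of 8277 genes. The nearest comparison was the 24350 peaks in internal coding exons of 400 nt or more under the same rule, and a further one was the 33496 peaks around the stop codon.

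N6-methyladenosine (m6A) is an internal mark of mRNA, laid down by the METTL3-METTL14 methyltransferase complex at the consensus DRACH (D stands for any base but C, R for a purine, H for any base but G) and removed by the demethylases FTO and ALKBH5. The mark is densest in long internal exons and near stop codons. After splicing, the exon junction complex (EJC) sits a short distance upstream of each junction, and together with packaging of the nearby RNA it is known to keep the methyltransferase away from exon ends, so that short internal exons carry little m6A. The peaks in short exons are therefore those that this exclusion would leave rare.

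The cells were the MEL1 human embryonic stem cell line, in its INSGFP/W form with a GFP reporter at the insulin gene, which all groups share. Batch 1 followed 4 wild-type stages. These were the undifferentiated cells, called hPSC, then the definitive endoderm, called DE, then progenitors of the pancreas (PP) and finally islet-like organoids (hILO), profiled from enriched mRNA and a Synaptic Systems antibody. Batch 2 held PPs of the wild type (WT PP) and of a clonal ALKBH5 knockout line made by CRISPR-Cpf1 cutting in the first exon (A5-KO PP), both from total RNA and, per the labels, a Millipore antibody, with rRNA depletion of the input and a stranded low-input kit. Each population had 2 immunoprecipitated (IP) and 2 input libraries, pooled into 1 peak list, so that values had no replicate error. Where 6 values follow each other, they stand in the order hPSC, DE, PP, hILO, WT PP, A5-KO PP, and 4 values are those of the stages. The intervals given (Wilson for shares, exact Poisson for densities, 95%) cover counting error only.

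The lists held 29083 to 55219 peaks, with 6987612 to 28463998 pooled input reads and 30723097 to 79822815 pooled IP reads inside them. No list had a member in ALKBH5, the targeted gene, which had 4 peaks with 289 input and 836 IP reads in WT PP, against 5 peaks with 1 input and 592 IP reads in A5-KO PP. Peaks lay in 4 of 5 hPSC markers in the hPSC list, in 5 of 5 DE markers in DE, in 5 of 6 PP markers in PP and in 6 of 7 islet markers in hILO. They were not confined to the matching stage. Over the 4 stages, hPSC markers with a peak numbered 4, 4, 2 and 1, DE markers 2, 5, 3 and 3, PP markers 2, 1, 5 and 5, and islet markers 1, 1, 3 and 6. All 3 liver markers also had peaks in hILO (1 of 3 in PP, 2 of 3 in WT PP and A5-KO PP). All 3 mesenchyme markers had peaks in PP (2 of 3 in hPSC, DE, WT PP and A5-KO PP). The part of liver and mesenchyme cells in the values was not tested. Between the batches the antibody, the RNA fraction and the library kit all changed, so that stage PP and WT PP cannot be told apart as cells or as protocol.

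In 536 exons a member with at least 50 input reads was present in all 4 stages. The 10 exons of different genes with the highest lowest enrichment were in RBM25, BRWD3, RBM39, MTCL1, SEPTIN7, BICD1, ARMC2, CREBL2, ERC1 and NAP1L1. The 5 exons below are shown because all or nearly all of their bases were inside peaks of all 4 stages, so that a single exon can be read beside its values. Sequences run 5′ to 3′ on the transcript strand (GENCODE 44, GRCh38), and capitals mark DRACH sites inside the peaks of all 4 stages. RBM25, exon 11 of 19, 223 nt, lies at chr14:73105859-73106081 on the plus strand. RBM39, exon 4 of 17, 195 nt, lies at chr20:35731941-35732135 on the minus strand. SEPTIN7, exon 11 of 13, 136 nt, lies at chr7:35898248-35898383 on the plus strand. ARMC2, exon 9 of 18, 103 nt, lies at chr6:108910899-108911001 on the plus strand. NAP1L1, exon 7 of 15, 129 nt, lies at chr12:76056033-76056161 on the minus strand.
RBM25: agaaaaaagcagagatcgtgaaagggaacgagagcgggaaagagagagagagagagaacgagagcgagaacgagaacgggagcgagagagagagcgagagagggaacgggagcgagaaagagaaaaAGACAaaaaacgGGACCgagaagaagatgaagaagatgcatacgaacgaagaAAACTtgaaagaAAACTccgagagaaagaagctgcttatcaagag
RBM39: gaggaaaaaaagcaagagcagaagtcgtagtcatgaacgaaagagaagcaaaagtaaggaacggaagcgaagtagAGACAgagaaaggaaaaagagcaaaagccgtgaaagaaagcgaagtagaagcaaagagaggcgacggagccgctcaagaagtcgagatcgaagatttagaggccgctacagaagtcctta
SEPTIN7: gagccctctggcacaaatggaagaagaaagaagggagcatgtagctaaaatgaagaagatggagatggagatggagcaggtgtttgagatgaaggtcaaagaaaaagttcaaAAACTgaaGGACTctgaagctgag
ARMC2: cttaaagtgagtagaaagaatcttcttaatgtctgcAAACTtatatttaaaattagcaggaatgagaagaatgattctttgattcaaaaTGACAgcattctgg
NAP1L1: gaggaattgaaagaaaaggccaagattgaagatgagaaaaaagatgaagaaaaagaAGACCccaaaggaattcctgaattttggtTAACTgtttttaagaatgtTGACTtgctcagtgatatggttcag

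The RBM25 exon held 4 DRACH sites and the RBM39 exon 1, although peaks of all 4 stages covered all or nearly all of both exons. Their sequence was made largely of purines, 83.0% in RBM25 and 76.4% in RBM39. SEPTIN7 (72.8% purines) had 2 DRACH sites, ARMC2 (56.3%) had 2 and NAP1L1 (65.1%) had 3. Of the 5 exons, RBM25 and SEPTIN7 held a GGAC, a frequent core of the consensus.

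Members were fewer than the length of short exons would give. Across the lists they made up 15.9% (15.5 to 16.3), 16.9%, 18.8%, 22.4%, 16.3% and 24.2% (23.8 to 24.7) of placed peaks. Short internal exons provided 24.9 to 25.8% of the exonic length of the same genes. The share was below the length in every list, and A5-KO PP came closest to it.

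Per kb of exon, hPSC had 0.365 midpoints in short internal exons and 1.38 in long ones, 3.79-fold lower. The next folds were 3.32 for DE (0.362 against 1.20), 3.25 for PP (0.399 against 1.30), 2.26 for hILO (0.465 against 1.05), 3.35 for WT PP (0.411 against 1.38) and 2.24 for A5-KO PP (0.602 against 1.35). The Poisson intervals of short and long exons were apart in all 6 lists. Within genes whose isoform held both kinds of exon, the ratio of short to long ran from 0.247 in hPSC to 0.452 in A5-KO PP. Counted as bases inside any peak, 5.12% of short-exon bases were covered in hPSC against 38.2% of long-exon bases, and 8.51% against 41.7% in A5-KO PP. Over all lists this measure gave a ratio of 0.169, where midpoints gave 0.344.

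The density was lowest in exons under 300 nt and then climbed. In hPSC there were 0.400 midpoints per kb in exons under 100 nt, 0.293 at 150 to 199 nt, 0.411 at 200 to 299 nt, 0.858 at 300 to 399 nt and 1.40 at 400 to 599 nt. From 400 nt upward it stayed between 1.23 and 1.49 in that list. The limit of 400 nt in the rule therefore fell at the top of the climb, and 300 to 399 nt exons were intermediate. A5-KO PP was above WT PP in the bins under 300 nt, with 0.707 against 0.379 under 100 nt and 0.609 against 0.519 at 200 to 299 nt. At 300 to 399 nt (1.14 against 1.15) and 400 to 599 nt (1.51 against 1.55) their intervals overlapped.

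**Figure D1:**
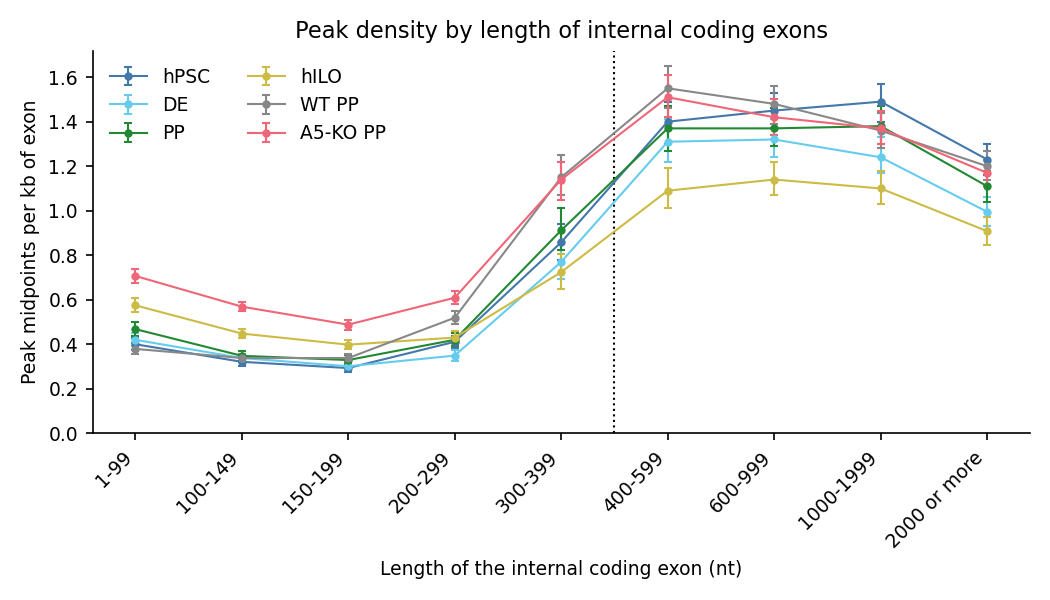
Peak midpoints per kb (vertical axis) by length of the internal coding exon in nt (horizontal axis), 1 line per list, with exact Poisson 95% intervals as bars and the 400 nt limit dotted. In all 6 lists exons under 300 nt lay below exons of 400 nt or more, from 0.293 to 0.411 against 1.23 to 1.49 in hPSC.

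Coverage also varied with position inside the exon. In short exons of hPSC, 4.77% of bases within 25 nt of the nearest junction were inside a peak, 5.66% at 76 to 100 nt, 10.2% at 101 to 150 nt and 21.6% at 151 to 200 nt. In WT PP these values were 4.97%, 6.86%, 12.7% and 26.1%, and in A5-KO PP 8.21%, 7.89%, 10.3% and 21.5%. Bases over 100 nt from a junction exist only in the longer of the short exons. Coverage changed less within 100 nt of a junction than beyond it, and the knockout was above WT PP there but below it farther in. Midpoints gave another picture within 100 nt, since in A5-KO PP they fell from 0.705 per kb within 25 nt to 0.316 at 76 to 100 nt, with 0.626 at 101 to 150 nt, and in PP from 0.432 to 0.266. In hPSC they stayed near 0.356 and 0.343 over the first 100 nt and reached 0.678 at 101 to 150 nt.

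Long exons had more coverage at every distance, 17.3% within 25 nt and 43.5% beyond 200 nt in hPSC. The ends of long exons were not alike. At the upstream junction of hPSC 8.89% of bases within 25 nt were covered, against 24.4% at the downstream junction, and at 151 to 200 nt the values were 33.9% and 46.6%. The upstream end was the lower one in all 6 lists, with 17.7% against 41.9% in WT PP and 19.2% against 41.2% in A5-KO PP. Short exons of 200 to 399 nt were cut into 5 equal parts, and the upstream part was again below the downstream part in all 6 lists, with 6.25% against 7.94% in hPSC and 11.5% against 13.5% in A5-KO PP. The middle part was above both ends in hPSC (8.30%) and under both in A5-KO PP (8.38%).

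**Figure D2:**
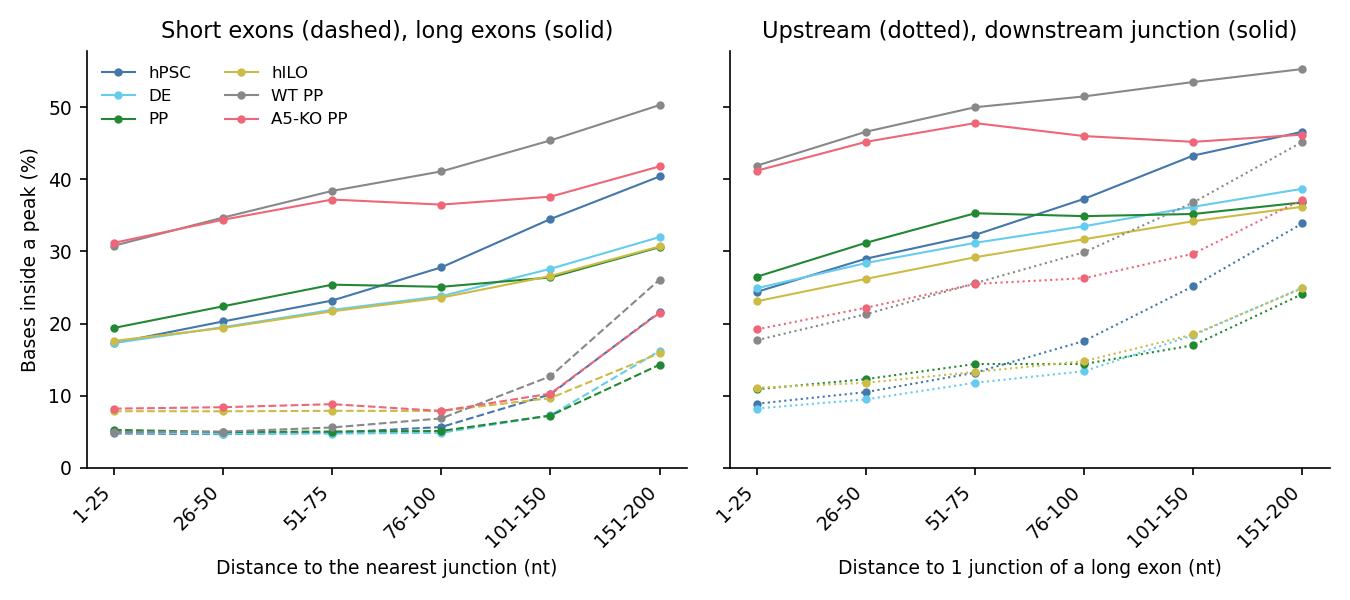
Percent of bases inside a peak (vertical axes) against distance in nt from the nearest junction for short and long internal exons (left) and from the upstream or downstream junction of long exons (right), 1 colour per list. Short exons lay under long exons at each distance, 4.77% against 17.3% within 25 nt in hPSC, and the upstream ends of long exons under the downstream ends.

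A single-exon reading is limited by the width of the peaks. In the 6 lists 49.1, 51.8, 50.7, 62.4, 45.4 and 55.5% of members reached over more than 1 exon, against 11.3 to 22.3% of long-exon peaks. The midpoint of such a peak need not be where the antibody bound. With peaks inside 1 exon alone, the ratio of short to long density over all lists dropped from 0.344 to 0.194. This drop follows from the filter, which removes more short-exon than long-exon peaks while the exon length stays the same. Members were also shorter on the isoform, with medians of 98.0 to 139 nt against 200 to 300 nt for long-exon peaks, and 7.26 to 14.6% of members kept less than 50 nt after clipping, the size of the smallest deposited peak.

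The median deposited log2 enrichment of members was 1.59, 1.61, 1.63, 1.46, 3.65 and 4.25, beside 1.77, 1.74, 1.60, 1.55, 3.62 and 3.99 for long exons. Lists were scaled separately, so the exon classes were compared within a list, and any difference between lists rests on the scaling of each. A ratio of pooled counts put members below long exons in 5 of the 6 lists, with differences of -0.24, -0.32, -0.13, -0.19, -0.23 and 0.08, so that PP and WT PP turned from 0.03. The knockout's higher value for members (difference 0.26) turned to -0.09 once peaks with under 50 input reads were left out, and 23.1% of its members had no input read at all, against 8.26% in WT PP and at most 0.115% in batch 1.

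Against the rest of the same exons, the consensus was less concentrated in members than in long-exon peaks. Sites were counted on the transcript strand as DRACH or GGAC, with overlaps allowed, and the opposite strand served as the control. DRACH was 1.06 to 1.11 times as dense in members as in the rest of the same exons, against 1.30 to 1.33 times in long-exon peaks. For GGAC the ratio was 1.08, 1.00, 1.00, 1.07, 1.03 and 1.03, while long-exon peaks had 1.30 to 1.54. On the opposite strand the GGAC ratio was 0.806, 0.834, 0.740, 0.820, 0.811 and 0.888 in members and 0.808, 0.782, 0.730, 0.780, 0.755 and 0.740 in long-exon peaks, so that this control also differed between the classes in several lists. A GGAC was present in 41.0% of hPSC members and in 66.8% of its long-exon peaks, but long-exon peaks were longer. Seen from the site, 5.25% of GGAC sites in short exons of hPSC lay inside a peak against 46.9% in long exons, and 8.64% against 46.5% in A5-KO PP.

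Base composition differed between members and the other short-exon bases. Bases of short exons inside peaks were 60.7, 60.7, 61.1 and 60.0% purine in the stages, where short-exon bases outside peaks had 52.5 to 52.8%. In batch 2 the values inside peaks were 55.8% for WT PP and 54.4% for A5-KO PP. Long-exon peaks had 53.6 to 55.6% in the 6 lists, against 50.9 to 51.3% of long-exon bases outside peaks. In A5-KO PP the values inside and outside peaks were 54.4% and 52.8% in short exons, and 53.9% and 51.0% in long exons. The excess in short exons was mainly adenosine, which made up 33.3% of short-exon bases inside hPSC peaks and 26.7% outside. Over exons, the median purine content was 60.0% in the 330 exons with a member in all 6 lists, 55.3% in exons with a member in any list and 52.9% in the other short exons of the same genes. The part of composition in the peak calls was not tested.

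The exons that carried members were longer and had longer introns. Their median length was 140 nt (220 nt for members in all 6 lists) against 122 nt for the other short internal coding exons of the same genes. Exons of 200 nt or more made up 21.6% of exons with a member, 54.8% of those in all 6 lists and 9.92% of the others. These are shares of exons, and a longer exon offers more bases for a midpoint. Per kb, hPSC had 0.400 midpoints under 100 nt, 0.293 at 150 to 199 nt, 0.411 at 200 to 299 nt and 0.858 at 300 to 399 nt. The median upstream intron was 2744 nt against 1634 nt and the median downstream intron 2412 nt against 1543 nt. Median GC content was 47.3% in exons with a member, 43.7% in those with a member in all 6 lists and 47.9% in the others.

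Density also varied with place in the gene. Exon 2 of the isoform made up 14.1% of exons with a member and 4.64% of the others. In hPSC exon 2 had 0.726 midpoints per kb, exon 3 had 0.420 and later exons had 0.328, and in stage PP the values were 1.15, 0.544 and 0.321. Density also declined away from the stop codon, from 0.444 per kb at 201 to 500 nt before it to 0.203 beyond 4000 nt in hPSC, and from 0.665 to 0.554 in A5-KO PP. Short exons beside an exon of 400 nt or more had 0.463 per kb in hPSC against 0.351 between short exons, and 0.696 against 0.370 in WT PP. Exons at the start of a transcript, near its stop codon or next to a long exon thus had the higher densities in every list, although the intervals overlapped for the last contrast in hILO (0.507 and 0.459).

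Some of these exons were part of another exon type in a different isoform. In hPSC 45.2% of members lay in a longer, first or last exon of another annotated isoform, where 37.3% of all short-exon bases of the same genes did. In A5-KO PP the member share was 31.3%, under its base share of 34.2%. With protein-coding isoforms alone the shares were 11.3 to 15.2% for members and 10.3 to 11.0% for bases. Restricting the density to exons that are short and internal in every coding isoform gave a ratio of 0.330, near the 0.344 of all exons.

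Most genes had a single exon of this kind. In the lists 61.8 to 72.0% of genes with members had them in 1 exon, and 8.77 to 17.0% had 3 or more such exons, with the highest share in A5-KO PP. In hPSC the 5 genes with most such exons were CENPE (a mitotic kinesin), BAZ2B (a bromodomain protein), SYNE2 (a nuclear envelope protein), CCDC18 and MYH10 (a non-muscle myosin heavy chain). CENPE had members in 11, 16, 8, 7, 8 and 10 exons. SYNE2 varied more, with 9, 2, 7, 2, 2 and 8 exons. MYH10 had 9, 9, 8, 6, 2 and 3 such exons, lower in both lists of batch 2 than in any stage.

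The 10 exons shared by the 4 stages had log2 enrichments between 2.04 and 3.08 there, each on the scaling of its list. RBM25, a splicing factor, had log2 enrichments of 2.93, 2.73, 2.94 and 2.91 in the stages, from 2514, 2836, 2634 and 2797 input reads, with counting errors of 0.0295 to 0.0304. Its peak was 600 nt on the isoform and covered 3 exons in all 6 lists. In batch 2 the same peak had 2.40 from 141 input reads in WT PP and 6.07 from 17 in A5-KO PP. RBM39, another splicing factor, had 2.67, 2.47, 2.46 and 2.77 over the stages, and 11 and 1 input reads in WT PP (6.22) and A5-KO PP (7.38). That RBM39 exon is also part of a long last exon of another isoform. The knockout values of both genes thus rested on very few input reads.

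SEPTIN7, a cytoskeletal GTPase, had 2.25, 2.28, 2.40 and 2.29 in the stages, and batch 2 gave 2.84 for WT PP and 2.71 for A5-KO PP. Its whole 136 nt exon was the peak in hPSC, DE, PP and WT PP. BICD1, an adaptor of the dynein motor, had 2.46, 2.51, 2.21 and 2.30 in the stages, with 5.06 for WT PP and 5.00 for A5-KO PP. Its peaks also lay in a last exon and in a long exon of other annotation of the gene. MTCL1, a microtubule crosslinker, had 2.63, 2.61, 2.93 and 2.38, with 8.37 in WT PP from 3 input reads and 5.08 in A5-KO PP from 665. The PP peak with this value lay in the same exon as those of DE, WT PP and A5-KO PP without overlapping them. These are thus values of an exon and not of 1 site, although 39 nt of the exon lay inside peaks of all 4 stages. CREBL2 had 2.73, 2.11, 2.24 and 2.08, and 2.08 in WT PP, without a peak in A5-KO PP.

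The remaining 4 exons had no peak in either list of batch 2. NAP1L1, a histone chaperone, had 2.10, 2.04, 2.24 and 2.35 in the stages, and ARMC2 had 2.89, 2.70, 2.57 and 2.17. BRWD3, a bromodomain and WD repeat protein, had 2.72, 3.08, 3.03 and 2.94. The hPSC peak with this value kept only 25 nt of the isoform and did not overlap those of PP and hILO. Even so, 69 nt of the exon lay inside peaks of all 4 stages. ERC1, an active zone scaffold protein, had 2.15, 2.04, 2.44 and 2.55, and its peaks of hPSC, PP and hILO also lay in a last exon of another isoform. The exons were chosen for their stage values, so that these are descriptions.

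**Figure D3:**
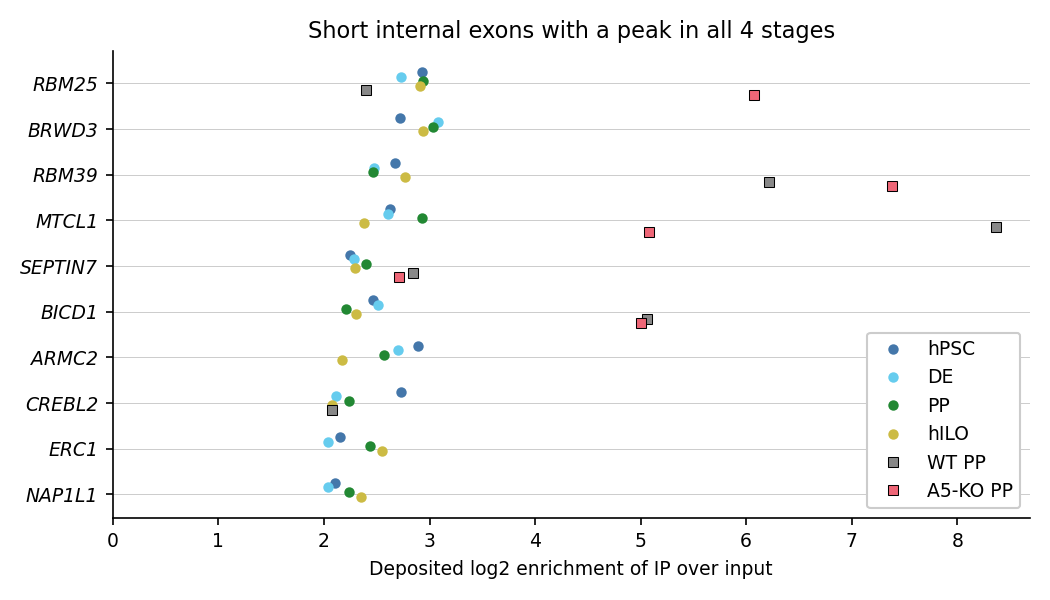
Deposited log2 enrichment of IP over input (horizontal axis) for the peak in each of 10 short internal exons (rows), with circles for the 4 stages and squares for WT PP and A5-KO PP. Stage values lay between 2.04 and 3.08, and batch 2 values, present in 6 of the 10 genes, between 2.08 and 8.37.

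The machinery of splicing and of m6A carried members itself. Genes of the EJC and its partners were counted where they had a peak and a short internal exon. A member was present in 11 of 18 (61.1%), 10 of 16, 12 of 16, 14 of 18 (77.8%), 10 of 17 and 7 of 16 (43.8%) of them. Over all such genes the shares were 32.0, 31.3, 35.0, 38.7, 36.7 and 44.1%. The EJC list was thus above all genes in the other lists and level with them in the knockout. The genes differ in exon number and read depth, which were not matched.

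Among the genes of these lists, UPF3B, which links the EJC to nonsense-mediated decay, had the members that reached over most exons. One spanned 7 exons and 847 nt in hPSC (log2 enrichment 2.50), 6 exons in DE (2.12) and 7 exons in hILO (2.28), and the region was split into several peaks in PP, WT PP and A5-KO PP. Its paralog UPF3A had members of 975 nt in DE (0.88), 950 nt in PP (1.83) and 1021 nt in hILO (2.29). SRRM1, a splicing coactivator, had a member centred on exon 5 in every list, at 1.80, 1.63, 1.31, 1.14, 2.01 and 2.43.

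Among m6A writers, a member was present in 4 of 8 genes, 4 of 8, 3 of 7, 5 of 8, 6 of 7 and 6 of 8 (42.9 to 85.7%, where all such genes had 31.3 to 44.1%). WTAP, the adaptor of the writer complex, had a peak in exon 6 in hPSC (2.38), DE (2.41) and PP (1.55), in a 3-exon peak of hILO (0.95), and in WT PP (6.01) and A5-KO PP (2.78). That exon is also part of a long last exon of another WTAP isoform. ZC3H13, a further subunit, had a peak in exon 8, of 198 nt, in all 6 lists, at 1.81, 2.11, 1.76, 1.90, 2.81 and 2.56.

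Of the demethylases, FTO had a member in exon 2 in PP (1.54) and A5-KO PP (1.20) and in no other list. Readers had members in 4 of 10 genes, 4 of 10, 5 of 10, 5 of 10, 3 of 8 and 2 of 9. FMR1, an RNA-binding protein, had a member at exon 15 in hPSC (1.69), DE (1.77), PP (2.41), hILO (1.35) and WT PP (5.20), and none in A5-KO PP. SR splicing factors had members in 2 of 9 genes, 4 of 9, 5 of 11, 7 of 11, 1 of 7 and 2 of 6. In percent, readers had 40.0, 40.0, 50.0, 50.0, 37.5 and 22.2 and SR factors 22.2, 44.4, 45.5, 63.6, 14.3 and 33.3. All such genes had 32.0, 31.3, 35.0, 38.7, 36.7 and 44.1. Readers were thus below all genes only in A5-KO PP, and SR factors in hPSC, WT PP and A5-KO PP. For SRSF11 the whole 90 nt exon 9 was a peak in hPSC (1.98), DE (1.85), WT PP (3.17) and A5-KO PP (3.40).

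Of the markers of each stage with a peak and a short internal exon, 1 of 4 had a member in hPSC, 1 of 1 in DE, 0 of 3 in PP and 1 of 2 in hILO, too few to set against the 31.3 to 38.7% of all such genes. DPPA4, a pluripotency gene, had them in exon 2 in hPSC (1.65) and DE (1.50), and DPPA4 was also present in WT PP and A5-KO PP. GATA6, an endoderm factor, had a 3-exon member in DE (1.40) and in hILO (1.86), and a 2-exon member in PP (2.57). GCG, the glucagon gene, had 1 in hILO (1.65), spanning 3 exons. Of the PP markers, none had a member in any list, although 3 with a peak in PP also had a short internal exon.

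A smaller share of members than of long-exon or stop codon peaks was found in every stage. A peak was covered by another list if that list's peaks overlapped over 50% of its exonic length. Of hPSC members 25.6% were covered in all 3 other stages, of DE members 28.6%, of PP members 29.5% and of hILO members 16.6%. Long-exon peaks had 31.1%, 44.9%, 46.8% and 47.0%. Members covered in none of the other stages were 29.1%, 22.3%, 32.6% and, for hILO, 46.9% (45.6 to 48.3), where hILO long-exon peaks had 14.4%. In hPSC the members without any cover were close to the long-exon share of 27.6%, and in the other 3 stages they were above it. Coverage depends on how much of a class is inside peaks, which was far more in long exons.

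**Figure D4:**
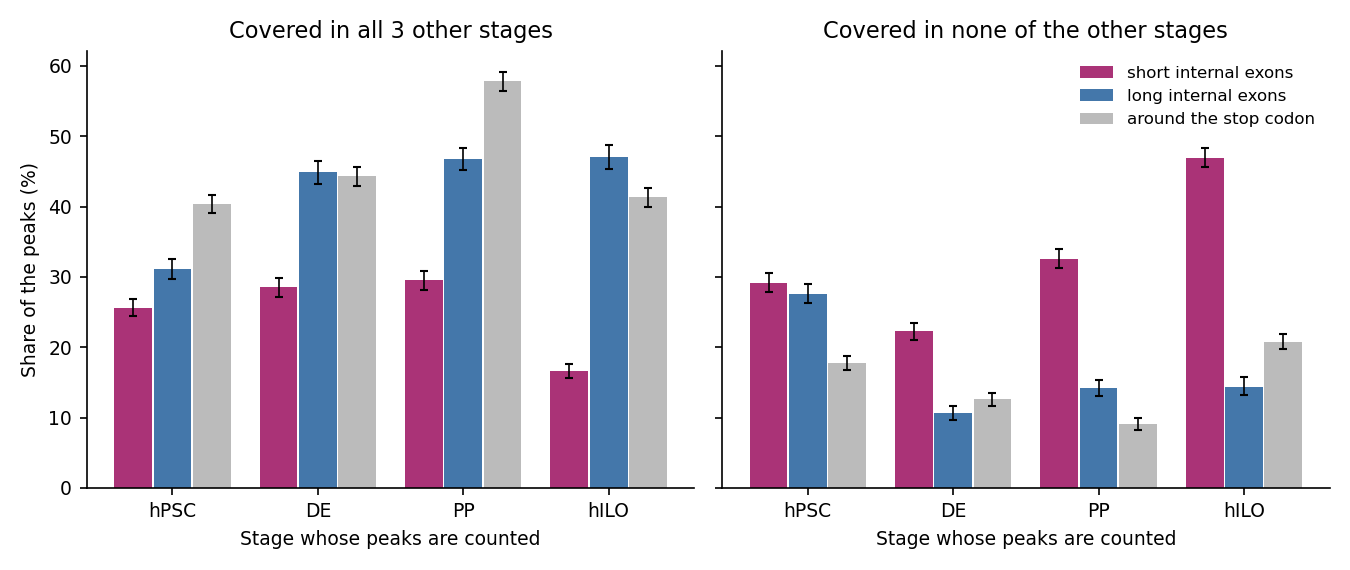
Percent of peaks of each stage (vertical axes) that were covered in all 3 other stages (left) or in none of them (right), for short internal exons, long internal exons and the stop codon, with Wilson 95% intervals. Short-exon bars were lowest on the left in all 4 stages, 16.6% in hILO, and highest on the right, 46.9% in hILO.

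Against the stage before, members were again covered less. Peaks of hPSC covered 53.4% of DE members, 80.8% of DE long-exon peaks and 68.4% of all DE peaks. The values were 44.6%, 62.1% and 59.5% for PP in DE peaks, and 31.2%, 63.1% and 47.0% for hILO in PP peaks. The order did not hold for hPSC and DE in hILO peaks, which covered 55.9% of hPSC members, 51.6% of hPSC long-exon peaks and 52.7% of all hPSC peaks, and 62.2% of both DE members and DE long-exon peaks. For PP in hILO peaks it held, with 55.8%, 64.1% and 63.2%. Members of DE that were covered in hPSC lay in exons of 200 nt or more in 29.1% (27.3 to 31.0) of cases, against 21.5% (19.8 to 23.4) of those that were not, and contained 62.2% purines against 57.9%. The GGAC density was 4.46 per kb in covered members and 4.29 per kb in the rest.

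The share of sites with a change in enrichment was small between successive stages. A pair of overlapping peaks, each with 50 or more input reads, was called when its log2 enrichments differed by 1 or more. From hPSC to DE, 39 of 1488 member pairs (2.62%) were higher and 38 (2.55%) lower, where 1.86% of all pairs were higher and 3.71% lower. From DE to PP, 98 of 1284 (7.63%) were higher and 35 (2.73%) lower, against 4.14% and 6.28% of all pairs. From PP to hILO, 28 of 1312 (2.13%) were higher and 136 (10.4%) lower, against 3.04% and 8.97%. The median difference over all pairs was -0.11, -0.16 and -0.08 in these comparisons, and -0.07, -0.02 and -0.17 over members. The last split depended on the measure, and a ratio of pooled counts centred on all pairs gave 5.18% higher and 4.50% lower.

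RRP15, a ribosome biogenesis factor, had the largest rise to PP and the largest fall after it. Its member at exon 4 had a log2 enrichment of 1.28 in DE (149 input and 217 IP reads), 3.79 in PP (165 and 2105) and 1.65 in hILO (189 and 475). The paired regions were unlike, with 863 nt over 5 exons in DE, 234 nt over 2 in PP, and 534 nt over 3 in hILO, where the peak was centred near the stop codon and was no member. RARS1, an arginyl-tRNA synthetase, went from 1.02 to 3.01 between DE and PP. SREK1, a splicing regulator, went from 3.08 to 1.36 and SNAP29, a SNARE protein, from 2.42 to 0.74 between the same stages. ETV1, an ETS transcription factor, went from 3.56 in PP to 1.47 in hILO.

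Between hPSC and DE the largest differences were in WDR7, from 1.37 to 3.16, SENP6, a SUMO protease, from 1.41 to 3.17, MCRIP1, from 2.55 to 0.68, and ATP8B1, a lipid flippase, from 2.69 to 0.86. From PP to hILO the highest rises were in USP42, a deubiquitinase, from 0.63 to 2.28, and SMC6, of the SMC5/6 complex, from 1.51 to 3.13. The SMC6 peak of hILO spanned 5 exons. Counting errors of these stage differences ran from 0.141 to 0.256.

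Across the batches members were found again far less than long-exon peaks. Of PP members, 26.9% (25.6 to 28.2) were covered by WT PP peaks, against 80.7% of PP long-exon peaks, 74.9% of those at the stop codon and 62.4% of all PP peaks. WT PP peaks covered 5.65% of short-exon and 50.5% of long-exon bases, so that the classes began from unlike levels. In the reverse direction 19.8% of WT PP members were covered by PP peaks, against 31.6% of long-exon peaks and 24.7% of all peaks.

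The members of WT PP that PP peaks covered were 60.9% purine, and those not covered were 53.8%. In PP the same comparison gave 61.1% and 60.9%. PP members covered in WT PP lay more often in exons of 200 nt or more, 40.7% (37.9 to 43.5) against 22.9% (21.4 to 24.4), but WT PP members covered in PP did not, with 34.3% against 34.0%. The PP members covered in WT PP had no more GGAC than the rest, with 4.52 per kb against 4.86 per kb, but less GGAC on the opposite strand, with 1.69 against 2.35 per kb. DRACH was at 24.3 per kb in covered PP members and 21.3 per kb in the rest.

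The knockout list had the most members. A5-KO PP held 9055 against 5389 in WT PP, 24.2% against 16.3% of placed peaks. With 50 or more input reads per peak the shares were 22.8% (22.2 to 23.4) and 17.1% (16.6 to 17.7), and at 200 or more they were 22.6% and 17.3%. In A5-KO PP the share was highest without input reads, 28.4%, and 20.9% at 1000 reads or more. In WT PP it ran the other way, 13.9% without input reads and 16.4% at 1000 or more. With 1 list per genotype and 1 knockout clone, a difference of genotype cannot be told apart from one of libraries.

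**Figure D5:**
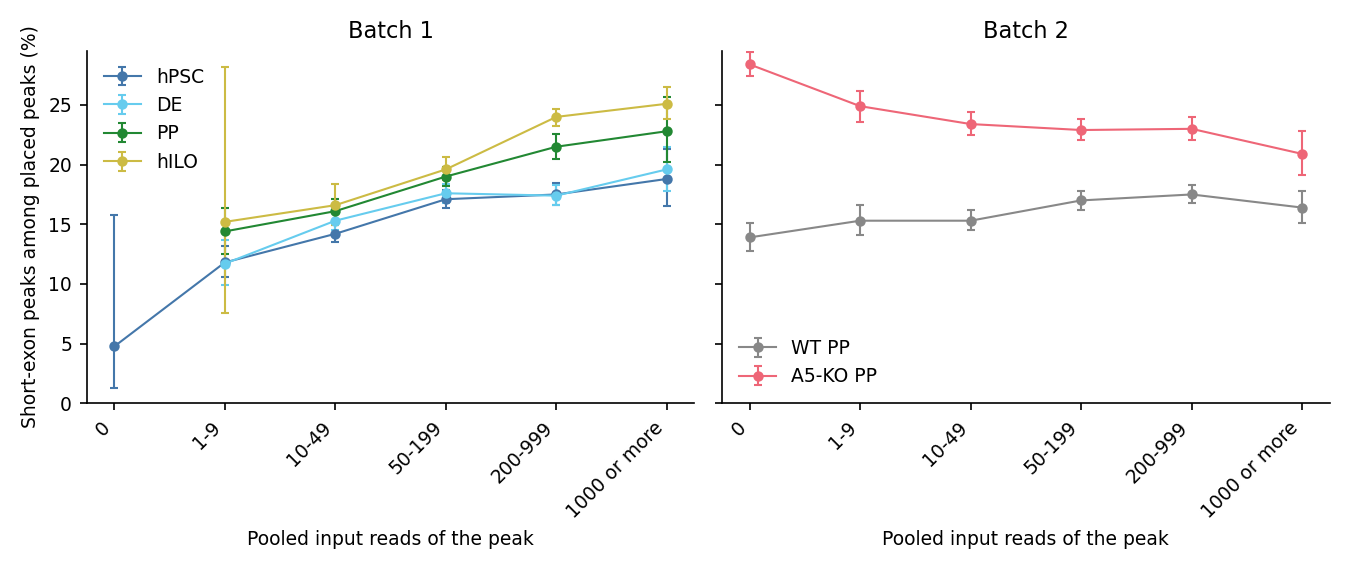
Members as percent of placed peaks (vertical axes) by pooled input reads of the peak (horizontal axes), for batch 1 (left) and batch 2 (right), with Wilson 95% intervals. A5-KO PP lay above WT PP in each bin of input reads, 28.4% against 13.9% at 0 reads and 20.9% against 16.4% at 1000 or more.

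Of A5-KO PP members 75.1% (6797) were not covered by WT PP peaks, and of WT PP members 60.2% (3245) were not covered by A5-KO PP peaks. Long-exon peaks of A5-KO PP were covered by WT PP in 73.0% of cases and all its peaks in 55.2%, against 24.9% of members. Of WT PP peaks as a whole the knockout covered 51.2%, against 39.8% of members. The members found in the knockout alone had fewer input reads than the shared ones, with medians of 30.0 and 86.5, and more of them reached over several exons, 57.4% against 49.7%. In WT PP the order was the reverse, with 41.4% of the members found there alone and 51.5% of the shared ones. Members of the knockout alone also lay less often in exons of 200 nt or more than the shared ones, 21.6% (20.6 to 22.6) against 39.2% (37.2 to 41.3), with 53.4% purines against 56.5%. GGAC was at 4.77 per kb in members of the knockout alone and 4.70 per kb in the shared ones, and on the opposite strand at 2.88 and 2.10 per kb.

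The next 4 genes are among the 5 with most exons carrying a member in A5-KO PP, and were picked out after their values were seen. TTN, the giant sarcomere protein with 340 short internal exons, had members in 44 exons, and in 28 in WT PP, 20 in DE, 9 in PP, 3 in hPSC and 3 in hILO. LRP1B, a lipoprotein receptor, had 22 in A5-KO PP and 0 in WT PP. CNTNAP2, a neurexin family protein, had 17 and 1, and CSMD1, a complement-related membrane protein, had 16 and 2. Of their members in the knockout, 10 of 48 in TTN, 11 of 22 in LRP1B, 9 of 17 in CNTNAP2 and 11 of 16 in CSMD1 had no input read.

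At sites with a peak in both genotypes the shares of members called were near those of all peaks. Of 1057 such member pairs, 222 (21.0%) were higher in A5-KO PP by 1 or more and 234 (22.1%) lower, against 22.4% and 21.1% of all 8122 pairs. The median difference was -0.06. The shares higher and lower were near each other, and both were above those between stages, where the highest were 7.63% and 10.4%. The cut of 1 was not like for like, as member enrichments spread more widely in batch 2. Their quartiles were 2.34 and 5.06 in WT PP and 2.44 and 6.30 in A5-KO PP, against 1.34 and 1.94 in hPSC. With 200 or more input reads in both lists, 15.4% were higher and 15.2% lower. With no minimum of input reads 35.0% were higher and 28.5% lower and the median was 0.09.

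The 4 largest rises were in SACM1L, a phosphoinositide phosphatase, HAPLN1, which links hyaluronan to proteoglycans, KIF20B, a kinesin, and RNF220, a ubiquitin ligase. SACM1L went from 1.38 in WT PP (120 input and 63 IP reads) to 6.52 in A5-KO PP (57 and 635). HAPLN1 went from 1.65 to 6.76, KIF20B from 1.19 to 6.06 and RNF220 from 0.85 to 5.49. The 4 largest falls were in SNX19, TTC6, SETD5 and VIRMA. SETD5, a SET domain protein, went from 6.34 (2601 input and 29700 IP reads) to 2.03 (237 and 177), SNX19, a sorting nexin, from 6.38 to 1.49, and TTC6 from 6.35 to 1.76. VIRMA, a subunit of the m6A writer, went from 6.53 to 2.26, with a WT PP peak centred in a long internal exon and a knockout peak in exon 7 of 273 nt. The paired SNX19 peak of the knockout was centred in the first exon. Counting errors of these differences were 0.146 to 0.330 and do not include library error.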

How the data were processed

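m6A-seq was done on 24 libraries of 12 groups (IP and input of 6 populations, 2 libraries each). The authors used fastp for trimming, HISAT2 for alignment to GRCh38, exomePeak2 for peaks and HOMER for motifs. The authors deposited 1 pooled peak list per population, with pooled IP and input read counts, a log2 enrichment and a p-value per peak. Deposited log2 enrichments began at 0.585 and p-values reached 0.0491. The methods name a threshold of p below 1e-05, which 54.4 to 95.9% of members met in a list; the lists were used as deposited. How the libraries were pooled into 1 count (sum or mean) is not given in the sources used here.

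Peaks were clipped to the longest protein-coding isoform by exonic length (GENCODE 44, GRCh38; python 3.11.15, numpy 2.4.6, pandas 2.3.3). A peak naming several genes went to the coding gene with most clipped bases. Densities used the isoforms of genes with a peak in that list. Pairs joined a member with the peak covering over 50% of its exonic length; a call was a difference of 1 or more in log2 enrichment where both peaks had 50 or more input reads. Counting errors added 0.5 to each count. The placement of peaks, the density ratio and the pairing by overlap were tested on simulated peaks of equal width. The motif, enrichment and other-isoform steps were not. No test across libraries could be run, since the lists hold no values per library.

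Genes were named by rule: 10 stage-shared exons, the largest pair differences, the 5 genes with most member exons in hPSC, and examples from the gene lists, while the genes with most member exons in A5-KO PP were picked after their values were seen; some genes these rules name are not reported here. The members and lists were chosen with earlier results of these data known.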

Additional observations from a re-analysis of the deposited data

How the results depend on the processing

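No paired analysis was possible because each list pools the 2 libraries of its groups, so neither a replicate block nor leaving out a replicate was run. Of 79 alternatives, 23 kept their value within its error, 53 moved, and in 3 a value whose interval left out 0 changed sign. The 5 that concerned clipped length, base coverage, single-exon density and class-wide motif background were chosen after seeing the data. Keeping only peaks inside 1 exon drops more short-exon than long-exon peaks, which lowers the ratio of short to long density by itself. In every setting tried for it the density in short exons stayed below that in long exons (the main ratio was 0.344). It was 0.339 both at p below 1e-10 and with at least 50 input reads, 0.329 in genes with both exon kinds, 0.310 in genes with a peak in all 6 lists, 0.352 with the longest CDS, 0.330 in exons short in every coding isoform, 0.308 with at least 50 nt on the isoform, 0.434 and 0.384 with limits of 200 and 600 nt, 0.194 for peaks inside 1 exon and 0.169 as bases covered. The share of members among placed peaks (19.3%) was 14.0%, 17.6% and 22.1% with limits of 200, 300 and 600 nt, 16.7% beyond 400 nt from the stop codon, 20.5% with the longest CDS, 19.7% at p below 1e-05, 19.8% with at least 50 input reads, 17.7% with at least 50 nt on the isoform and 11.0% inside 1 exon.

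The density within 100 nt of a junction over that beyond it was 0.658 in short and 0.718 in long exons. With peaks inside 1 exon the ratio over all lists was 0.354 and 0.388, but that filter by itself removes more peaks centred near a junction. In long exons at p below 1e-10 the ratio was 0.665. The DRACH ratio (1.09) was 1.03 for GGAC and 1.14 against all class bases outside peaks. Multi-exon members (53.0%) were 54.0% with at least 50 input reads and 56.5% at p below 1e-10. Members inside another exon type of a different isoform (40.6%) were 13.4% with coding isoforms alone. Members covered by the stage before (42.0%) were 51.0% with any overlap, 33.5% with over 50% of both peaks and 33.9% with at least 50 input reads.

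The short minus long difference in log2 enrichment (-0.18, -0.13, 0.03, -0.09, 0.03 and 0.26) became -0.24, -0.32, -0.13, -0.19, -0.23 and 0.08 (batch 1 stages, then WT PP and A5-KO PP) with the ratio of pooled counts, which turned the sign in PP and WT PP, and -0.22 in hPSC and -0.09 in A5-KO PP (from 0.26, a change of sign) with at least 50 input reads. Without a minimum of reads, member pairs higher and lower were 4.71% and 4.79% in DE against hPSC, 10.1% and 4.60% in PP against DE, 3.44% and 14.0% in hILO against PP, and 35.0% and 28.5% in A5-KO PP against WT PP, where the median turned from -0.06 to 0.09. At 200 reads or more the knockout shares were 15.4% and 15.2%. With the centred count ratio, lower pairs were 1.75% in DE and 1.95% in PP, with medians of -0.05 and 0.04, where the PP median had been -0.02 (0.01 without a minimum). In hILO 5.18% were higher, 4.50% lower and the median turned from -0.17 to 0.02, and in A5-KO PP 18.6% were higher. The cause of these changes was not tested.

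The 2 libraries behind each list limit every comparison, as no spread between them can be given.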
